A study of Homo sapiens with 4 samples.

Results

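The 10 genes described here encode proteins that hold the growth kinase complex mTORC1 in check or tell it how much amino acid, energy or oxygen the cell has: the sestrins SESN1, SESN2 and SESN3, the stress-induced inhibitor DDIT4 (also called REDD1), the arginine sensor CASTOR1, the mTOR-binding inhibitor DEPTOR, the GTPases RRAGC and RRAGD, and the subunits TSC1 and TSC2 of the tuberous sclerosis complex. They were chosen by symbol, and all 10 were found among the 20263 genes of the count table. HCT116, a human colon cancer cell line, was cultured with the compound N_12 or with the solvent DMSO, and mRNA libraries were sequenced after 24 h. Each group held 2 libraries. The series title presents N_12 as derived from nilotinib, an inhibitor of the BCR-ABL kinase, while the treatment field of the N_12 samples reads HJJ_3_5, a different code. The labels give neither its dose nor its structure. Nothing in the labels says whether the libraries of a group came from separate cultures, so p-values reflect the spread among these libraries alone and it may be technical.

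mTORC1 is activated on the lysosome when nutrient and growth factor inputs meet. Amino acids act through the Rag GTPases, which recruit mTORC1 as a pair of RagA or RagB with RagC or RagD. When leucine or arginine is short, sestrins and CASTOR1 bind the complex GATOR2, so that GATOR1 can switch the Rag pair off. Growth factors, energy and oxygen act through TSC1 and TSC2, which switch off the GTPase Rheb, and DDIT4 strengthens that brake in stressed cells. Transcription adds a slower layer. SESN2 and DDIT4 are known targets of the stress factor ATF4, DDIT4 also of the hypoxia factor HIF, SESN1 and SESN2 of p53, SESN1 and SESN3 of FOXO factors, and RRAGC and RRAGD of the lysosomal MiT/TFE factors.

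Promoter sequence is shown for 4 genes whose transcripts took different courses or which carry the letters bound by these factors. Each run is the 250 bases before the gene's start, from RefSeq on build GRCh38.p14, in the direction of transcription. Of the 10 genes, 8 had an entry, with 11 windows in all. Both strands were searched for the core letters of a HIF site (ACGTG), of the CLEAR site of MiT/TFE factors (CACGTG, which contains the HIF letters), of an ATF4 site (TGATGNAA) and of a FOXO site (TGTTTAC). Capitals mark these matches.
DDIT4 (chr10:72273674-72273923, plus strand): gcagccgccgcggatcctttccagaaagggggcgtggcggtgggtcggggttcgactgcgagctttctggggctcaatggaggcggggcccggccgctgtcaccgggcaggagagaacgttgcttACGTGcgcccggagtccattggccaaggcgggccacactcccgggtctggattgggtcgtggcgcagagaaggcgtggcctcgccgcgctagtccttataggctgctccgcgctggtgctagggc
SESN2 (chr1:28259268-28259517, plus strand): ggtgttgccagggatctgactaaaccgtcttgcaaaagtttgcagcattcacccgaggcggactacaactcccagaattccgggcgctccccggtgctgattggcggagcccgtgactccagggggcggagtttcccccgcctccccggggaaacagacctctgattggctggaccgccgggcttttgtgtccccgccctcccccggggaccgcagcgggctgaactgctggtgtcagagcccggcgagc
TSC2 (chr16:2047735-2047984, plus strand, the first of 2 windows): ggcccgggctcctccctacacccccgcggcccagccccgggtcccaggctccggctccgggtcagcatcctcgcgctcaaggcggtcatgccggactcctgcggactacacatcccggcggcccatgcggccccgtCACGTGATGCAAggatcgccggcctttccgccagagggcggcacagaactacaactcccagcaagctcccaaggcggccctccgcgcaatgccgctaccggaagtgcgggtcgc
RRAGC (chr1:38859773-38860022, minus strand): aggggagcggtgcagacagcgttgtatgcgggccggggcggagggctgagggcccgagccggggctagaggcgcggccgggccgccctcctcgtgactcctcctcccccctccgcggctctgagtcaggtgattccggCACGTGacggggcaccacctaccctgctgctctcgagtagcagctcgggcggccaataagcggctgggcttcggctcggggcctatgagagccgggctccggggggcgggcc
The DDIT4 window held the HIF letters ACGTG once, starting 125 bases before the start. Other forms of the HIF core were not searched in any window. The SESN2 window held none of the motifs searched. In TSC2 the CLEAR letters, starting 114 bases before the start, overlapped the ATF4 letters, and RRAGC held the CLEAR letters 112 bases before its start. TSC2 and RRAGC thus held the HIF letters too, and with DDIT4 3 of the 11 windows did. Over all 35116 windows of the RefSeq table, 18.5% held the HIF letters, 6.34% the CLEAR letters, 3.14% the ATF4 letters and 2.98% the FOXO letters. No window of the 10 genes held the FOXO letters. These matches are descriptions of sequence, and no binding was measured.

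Total counts ranged from 29769568 to 41717938 per library, the 10 most counted genes took 9.65% to 11.1% of them, and mitochondrially encoded genes took 6.59% and 7.73% in DMSO and 8.23% and 9.61% in N_12. The keratins KRT8, KRT18 and KRT19, EPCAM and CDH1 were detected in every library, with KRT8 at 1350 to 1959 CPM (counts scaled to library size). The differentiation markers CDX1 (0 counts throughout), VIL1 and LGALS4 (at most 9 counts) were at or near 0, while the intestinal factor gene CDX2 stood at 13.6 and 14.2 CPM in DMSO and 22.0 and 20.7 CPM in N_12. Near 0 as well were PTPRC and CD3E of leukocytes, DCN and LUM of fibroblasts (0 counts throughout), and PECAM1 and CDH5 of endothelium (at most 3 counts). Summed CPM of the epithelial list was 4717 and 4167 in DMSO and 3427 and 3762 in N_12, so that both N_12 sums were below the controls. That of the fibroblast list, mostly COL1A1, was 78.1 and 72.4 against 67.5 and 71.9, that of the leukocyte list, mostly CD68, 41.7 and 35.0 against 49.1 and 42.3, and that of the endothelial list 1.61 and 1.46 against 0.831 and 2.35. By edgeR none of the 13 tested markers was called, while DESeq2 called 1 and limma-voom 0. Over all genes the calls were 317 (2.25%) by edgeR, 1184 by DESeq2 and 131 by limma-voom. An unadjusted edgeR p under 0.05 was found for 5 markers, and for 21.8% of all tested genes. The 5 were all epithelial, with EPCAM (-0.42), KRT8 (-0.36), CDH1 (-0.52) and CLDN7 (-0.48) on the lower side and CDX2 (0.62) on the higher side in log2 fold change. Their part in the results that follow was not tested.

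DDIT4 fell in N_12 and was the only gene of the 10 called by edgeR's quasi-likelihood test at a Benjamini-Hochberg adjusted p of 0.05 over the 14105 genes tested. SESN3 lay lower by nearly as much without passing, TSC1 and TSC2 lay on the higher side, and SESN2 had a log2 fold change of 0.22 that did not pass. All 10 genes had enough counts to be tested. The 1 call among them compares with 2.25% of all tested genes called. Groups did not overlap for 8 of the 10, against 54.7% of all tested genes, and 5 had an unadjusted p under 0.05, against 21.8%. The median log2 fold change was -0.23 for the 10 genes and 0.01 for all tested genes. Library sizes were adjusted by TMM. In bulk RNA, fewer cells that express a gene and less RNA per cell cannot be told apart.

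**Figure D1:**
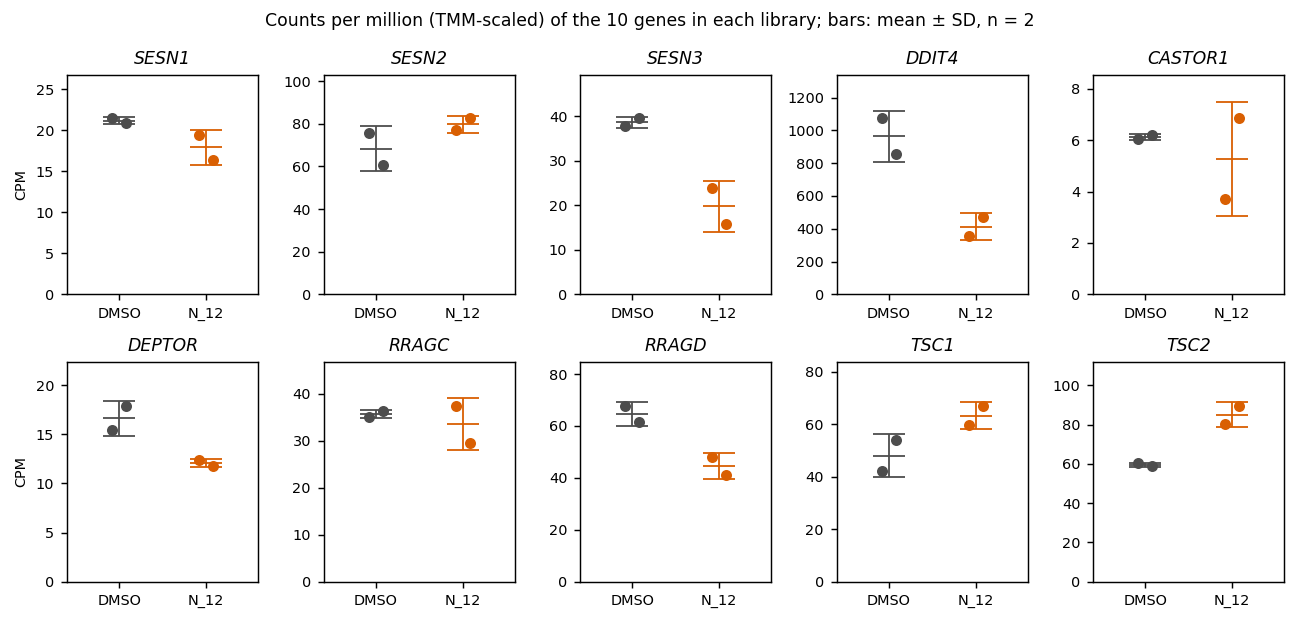
CPM of each of the 10 genes (vertical axis, starting at 0, own scale per gene) in the DMSO and N_12 libraries; points are single libraries and bars the mean ± SD of 2. DDIT4 and SESN3 show the widest gap between groups, and CASTOR1 and RRAGC overlap.

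DDIT4 was by far the most abundant of the 10. It stood at 1073 and 854 CPM in DMSO replicates 1 and 2 and at 353 and 470 CPM in N_12 replicates 1 and 2. Both N_12 libraries lay well below both controls, and the libraries of each group also differed among themselves. The log2 fold change was -1.23 (SE 0.18, 95% interval -1.66 to -0.80), a 2.34-fold fall, with an edgeR adjusted p = 0.0237. Without N_12 replicate 1 the log2 fold change was -1.05 (edgeR adjusted p = 0.141), and without N_12 replicate 2 it was -1.47 (edgeR adjusted p = 0.127). Neither of those edgeR fits called any gene, with 2855 and 2761 genes at an unadjusted p under 0.05. Without robust dispersions the edgeR adjusted p of DDIT4 was 0.0516. Exons annotated on the other strand cover 41.2% of the exon bases of DDIT4 in GENCODE 29, and the strand setting of the counts is not given.

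The sestrins bind GATOR2, and SESN2 is the best studied leucine sensor among them. SESN2 stood at 75.6 and 60.9 CPM in DMSO and at 76.9 and 82.5 CPM in N_12. The higher control library and the lower N_12 library nearly met. Its log2 fold change was 0.22 (SE 0.16, interval -0.14 to 0.59, edgeR adjusted p = 0.445). The interval includes 0. SESN3, the family member with the longest transcript, stood at 37.7 and 39.5 CPM in DMSO and at 23.9 and 15.7 CPM in N_12. The groups were well apart, although the N_12 libraries differed from each other more than the controls did. The log2 fold change of SESN3 was -0.96 (SE 0.21, interval -1.46 to -0.47), and its edgeR adjusted p = 0.0642 missed the threshold. Of 13 alternative fits 3 called SESN3, among them DESeq2 (adjusted p = 0.00269) and edgeR with GC and length correction (adjusted p = 0.0325). With limma-voom SESN3 was not called (adjusted p = 0.0932). SESN1, known as a p53-inducible sestrin, stood at 21.4 and 20.8 CPM in DMSO and at 19.5 and 16.4 CPM in N_12 (log2 fold change -0.24, SE 0.17, edgeR adjusted p = 0.447).

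To compare levels between genes, CPM were divided by the length of the principal transcript in kilobases. These lengths were 3453 bases for SESN2, 3509 for SESN1 and 9558 for SESN3, and transcript use in these cells was not measured. On this scale SESN2 supplied 68.5% and 63.6% of the sestrin transcripts in the DMSO libraries and 73.5% and 79.1% in the N_12 libraries. SESN3 supplied 12.4% and 14.9% in DMSO and 8.23% and 5.45% in N_12, while SESN1 supplied 19.1% and 21.5% in DMSO and 18.3% and 15.5% in N_12. The shares of all 3 sestrins thus did not overlap between groups, that of SESN2 being higher in N_12 and the others lower. Each share depends on the others, and in CPM the groups did not overlap for 54.7% of all tested genes. Before division by length SESN3 stood above SESN1 in DMSO, so the order of their shares there rests on the lengths used. The summed level of the 3 sestrins was 32.0 and 27.7 CPM per kilobase in DMSO and 30.3 and 30.2 in N_12. The N_12 sums lay between those of the controls. The count ratio of SESN2 to SESN1 was 3.53 and 2.92 in DMSO and 3.95 and 5.03 in N_12, a difference of 0.47 on the log2 scale. An exact two-sided permutation test gave p = 0.333, the smallest that 2 libraries against 2 allow.

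**Figure D2:**
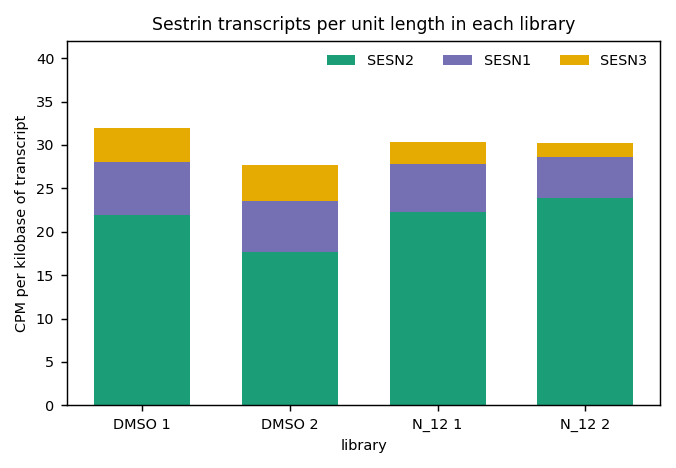
Stacked bars of SESN2, SESN1 and SESN3 in CPM per kilobase of transcript (vertical axis) for each library (horizontal axis). The bar heights lie between 27.7 and 32.0 in all 4 libraries, and the SESN3 segment is smaller in both N_12 libraries.

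DDIT4 and SESN2, which share ATF4 as a regulator, did not keep their proportion. There were 14.2 and 14.0 DDIT4 counts for each SESN2 count in the DMSO libraries, and 4.59 and 5.71 in the N_12 libraries. The control libraries agreed closely, and the ratio differed by -1.46 on the log2 scale (exact two-sided permutation p = 0.333, the smallest possible). This ratio does not depend on how libraries were scaled. Among 17 other tested ATF4 targets of the list used here, 14 lay above 0 and 3 below (median 0.44). Of these, edgeR and limma-voom each called 3 higher and 0 lower, and DESeq2 called 6 higher and 2 lower. The edgeR calls were TRIB3, a pseudokinase of the stress response, at 1.19 (SE 0.16), the serine synthesis enzyme gene PSAT1 at 1.13 (SE 0.13) and the asparagine synthetase gene ASNS at 0.85 (SE 0.13). Both N_12 libraries lay below both controls for DDIT3, which encodes the stress factor CHOP (-0.84, SE 0.20, edgeR adjusted p = 0.0789), and for the proline synthesis gene ALDH18A1 (-0.58, SE 0.13, edgeR adjusted p = 0.0635). DDIT3 and ALDH18A1 were named after their values were seen. Among 19 other tested HIF targets edgeR called 13 lower, DESeq2 16 and limma-voom 9, with 0 called higher by each (median -1.48), including ANKRD37, an ankyrin repeat gene (-3.32, SE 0.24), HILPDA of lipid droplets (-2.94, SE 0.22) and the hormone gene ADM (-2.30, SE 0.18). DDIT4 is on both lists. Over all tested genes edgeR called 0.822% higher and 1.43% lower. DESeq2 called 544 higher and 640 lower among 16709 genes with any count, a number taken before its own filtering. The calls of limma-voom were 47 higher and 84 lower among 14105.

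Transcripts of other listed targets of p53 and of FOXO factors were read in the same way. Of 17 other tested p53 targets edgeR called 2 higher and 0 lower, limma-voom 1 higher and DESeq2 3 higher and 1 lower (median 0.03). The calls of each method over all genes are those given above. The 2 edgeR calls were the stress cytokine gene GDF15 (1.27, SE 0.13) and BBC3, which encodes the BH3-only protein PUMA (1.29, SE 0.19). TP53INP1, a p53-induced autophagy gene, had a log2 fold change of -0.60 (SE 0.16, edgeR adjusted p = 0.0915). Of 12 other tested FOXO targets edgeR called 0, limma-voom 0 and DESeq2 2, and all 12 had a log2 fold change below 0 (median -0.22). Of the 12, 3 had an unadjusted edgeR p under 0.05. With SESN1 and SESN3 included, 4 of 14 (28.6%) did, against 21.8% of all tested genes. These were SESN3, the cyclin gene CCNG2 (-0.58, SE 0.16), the repressor gene BCL6 (-0.43, SE 0.13) and the zinc finger gene KLF6 (-0.37, SE 0.15).

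Of the arginine sensor CASTOR1, 6.03 and 6.19 CPM were measured in DMSO and 3.70 and 6.84 CPM in N_12. The N_12 libraries lay on either side of the controls, and the interval of the log2 fold change (-0.92 to 0.49) included changes in both directions. In GENCODE 29, 46% of the exon bases of CASTOR1 overlap other annotation on the same strand, including AC004997.1, so its counts depend on how reads were assigned. DEPTOR, which binds mTOR and inhibits both of its complexes, stood at 15.4 and 17.9 CPM in DMSO and at 12.4 and 11.8 CPM in N_12. The groups were apart for DEPTOR, with a log2 fold change of -0.46 (SE 0.18, interval -0.87 to -0.06, edgeR adjusted p = 0.184).

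RRAGC and RRAGD encode the alternative partners RagC and RagD of the Rag pair. RRAGC stood at 35.1 and 36.3 CPM in DMSO and at 37.5 and 29.6 CPM in N_12. The groups overlapped, and the log2 fold change was -0.09 (SE 0.17, interval -0.49 to 0.31). In GENCODE 29, 22.9% of the exon bases of RRAGC overlap other annotation on the same strand, which also makes its counts depend on how reads were assigned. RRAGD stood at 67.8 and 61.4 CPM in DMSO and at 47.9 and 41.0 CPM in N_12. Both N_12 libraries lay below both controls, with a log2 fold change of -0.54 (SE 0.16, interval -0.90 to -0.17, edgeR adjusted p = 0.114). DESeq2 called RRAGD (adjusted p = 0.0305), as the only 1 of 13 alternative fits. Per kilobase, RRAGD made up 51.8% and 48.5% of the pair in DMSO and 41.7% and 43.6% in N_12. The count ratio of RRAGD to RRAGC differed by -0.44 on the log2 scale (exact two-sided permutation p = 0.333, the smallest possible). Of 16 other tested MiT/TFE targets edgeR called 0, limma-voom 0 and DESeq2 3, with 3 at an unadjusted edgeR p under 0.05 and a median of 0.05. Over all tested genes 21.8% had an unadjusted edgeR p under 0.05, and edgeR called 2.25%. DESeq2 called 1184 of the 16709 genes with any count, and limma-voom 131 of 14105. The 3 MiT/TFE targets with the smallest p were SQSTM1, an autophagy receptor gene (0.63, SE 0.13), ATP6V0D1 of the lysosomal proton pump (0.56, SE 0.16) and HEXA, a lysosomal hydrolase gene (-0.47, SE 0.14). Of the 16, 9 lay above 0 and 7 below.

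TSC1 and TSC2 form the complex that restrains Rheb, and both transcripts lay higher in N_12. TSC2, which holds the GTPase-activating domain, stood at 60.2 and 58.8 CPM in DMSO and at 80.5 and 89.5 CPM in N_12. The controls were close together and the N_12 libraries clearly above them. The log2 fold change of TSC2 was 0.51 (SE 0.14, interval 0.19 to 0.84), with an edgeR adjusted p = 0.0994. DESeq2 called TSC2 (adjusted p = 0.0249), as the only 1 of 13 alternative fits. TSC1, the partner that stabilises TSC2, stood at 42.1 and 53.8 CPM in DMSO and at 59.5 and 67.0 CPM in N_12 (log2 fold change 0.40, SE 0.17, interval -0.0019 to 0.80, edgeR adjusted p = 0.231). The count ratio of TSC1 to TSC2 was 0.699 and 0.915 in DMSO and 0.740 and 0.748 in N_12. These ratios overlapped (difference -0.10 on the log2 scale, exact two-sided permutation p = 1). Exons of genes on the other strand cover 6.01% of the exon bases of TSC2, among them those of NTHL1 and PKD1.

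Per kilobase of transcript, the order of levels in DMSO began with DDIT4 at 551 ± 88.6 CPM per kilobase (mean ± SD, n = 2) and SESN2 at 19.8 ± 3.03. RRAGD (13.2 ± 0.918) and RRAGC (13.1 ± 0.311) followed and did not differ beyond their spread. TSC2 followed at 9.66 ± 0.161. Below it DEPTOR (6.49 ± 0.691), SESN1 (6.03 ± 0.121) and TSC1 (5.57 ± 0.960) overlapped, and SESN3 (4.04 ± 0.129) and CASTOR1 (3.77 ± 0.0679) were lowest. In N_12 DDIT4 (236 ± 47.5) and SESN2 (23.1 ± 1.14) kept the first places. TSC2 came next at 13.8 ± 1.04, overlapping RRAGC (12.3 ± 2.03), with RRAGD below them at 9.08 ± 1.0. The last places went to CASTOR1 (3.25 ± 1.37) and SESN3 (2.07 ± 0.602).

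The rest of the pathway was read from a list of 73 other genes, of which 71 were tested. One of them, RPTOR, was called, as higher. The median log2 fold change of the list was -0.01, and 34 genes lay above 0 and 37 below. The 1 call is 1.41% of the list, against 2.25% of all tested genes, and the 15 genes with an unadjusted p under 0.05 are 21.1%, against 21.8%. RPTOR encodes raptor, the subunit through which mTORC1 recognises its substrates and the Rag pair. It stood at 54.9 and 54.1 CPM in DMSO and at 95.7 and 105 CPM in N_12. The controls were nearly equal and both N_12 libraries were far above them, with a log2 fold change of 0.88 (SE 0.14, interval 0.56 to 1.20, edgeR adjusted p = 0.0247). RPTOR lost its call without DMSO replicate 1 (log2 fold change 0.89, edgeR adjusted p = 0.0643), without N_12 replicate 1 (0.93, edgeR adjusted p = 0.131) and without N_12 replicate 2 (0.78, edgeR adjusted p = 0.144). It missed the threshold narrowly with limma-voom (adjusted p = 0.0503) and in edgeR without robust dispersions (adjusted p = 0.0504). MTOR, the kinase itself, stood at 75.6 and 84.8 CPM in DMSO and at 120 and 139 CPM in N_12. It lay close to the threshold, with a log2 fold change of 0.69 (SE 0.15, interval 0.35 to 1.03, edgeR adjusted p = 0.0567). Of 13 alternative fits 4 called MTOR, among them DESeq2 (adjusted p = 0.00259).

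Of the 8 tested mTORC1 and mTORC2 subunits, 5 (62.5%) had an unadjusted p under 0.05, against 21.1% of the whole list and 21.8% of all tested genes. Besides RPTOR and MTOR these were the mTORC1 inhibitor AKT1S1 (0.55, SE 0.14), which DESeq2 called (adjusted p = 0.015), the mTORC2 subunit MAPKAP1 (0.44, SE 0.18) and the mTORC2 scaffold RICTOR (-0.59, SE 0.21). RICTOR differed from RPTOR in sign, at 70.3 and 103 CPM in DMSO and 62.8 and 52.0 CPM in N_12, but was not called by edgeR (adjusted p = 0.163). AKT1S1, MAPKAP1 and RICTOR were named after their values were seen, to complete that count.

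**Figure D3:**
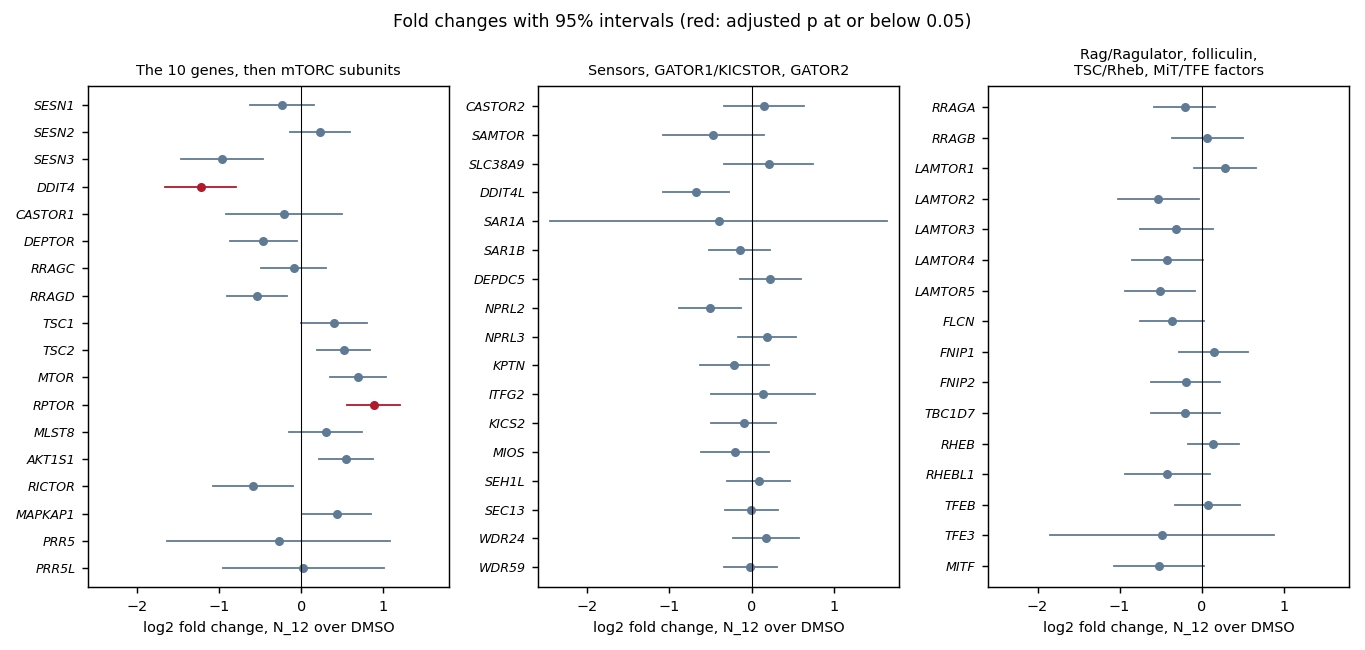
Log2 fold change of N_12 over DMSO (horizontal axis) with its 95% interval for the 10 genes and for genes of the complexes around mTORC1, in rows; red marks an edgeR adjusted p at or below 0.05. DDIT4 on the lower side and RPTOR on the higher side are the red rows.

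Around the Rag pair edgeR called 0 of 28 tested genes, limma-voom 0 and DESeq2 1, with 4 at an unadjusted edgeR p under 0.05. Over all tested genes 21.8% had such a p and edgeR called 2.25%. Calls over all genes were 131 of 14105 by limma-voom and 1184 of the 16709 with any count by DESeq2. DDIT4L, a relative of DDIT4, was nearest to the threshold. It stood at 21.1 and 18.1 CPM in DMSO and at 12.6 and 11.8 CPM in N_12, both below the controls (log2 fold change -0.68, SE 0.17, edgeR adjusted p = 0.0871), and was the gene DESeq2 called (adjusted p = 0.0222). SAMTOR, a sensor of S-adenosylmethionine, had a log2 fold change of -0.46 (SE 0.26). The 7 genes of GATOR1 and of its anchor KICSTOR had a median of 0.14, with the GATOR1 subunit NPRL2 at -0.51 (SE 0.16). The 5 genes of GATOR2, to which sestrins and CASTOR1 bind, lay between -0.20 (MIOS) and 0.18 (WDR24). Of 7 genes of the other Rag GTPases and of the Ragulator that anchors them on the lysosome, 5 lay below 0 (median -0.31, or -0.18 with correction for GC content and length), with LAMTOR2 at -0.53 (SE 0.21) and LAMTOR5 at -0.51 (SE 0.18). Folliculin, which acts on RagC and RagD, had a log2 fold change of -0.36 for its gene FLCN (SE 0.17) and -0.20 for its partner FNIP2 (SE 0.18). Of the 3 tested genes of the folliculin complex, 2 lay below 0 and 1 above.

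Around TSC and downstream of mTORC1 edgeR, limma-voom and DESeq2 called 0 of 35 tested genes, with 6 at an unadjusted edgeR p under 0.05. The share with such a p over all tested genes was 21.8%, and edgeR called 2.25% of them. Over all genes limma-voom called 131 and DESeq2 1184. RHEBL1, a relative of Rheb, had a log2 fold change of -0.42 (SE 0.22) and TBC1D7, a further TSC subunit, of -0.20 (SE 0.18). Of 9 tested genes of the energy sensor AMPK and its activating kinase LKB1, PRKAA2, a catalytic subunit gene, was at -0.60 (SE 0.21) and PRKAB2, a regulatory one, at -0.50 (SE 0.16). Among 10 genes of the insulin and AKT input, PIK3CB, a catalytic subunit of PI3K, was at 0.46 (SE 0.18) and the adaptor gene IRS1 at 0.31 (SE 0.14). Of 10 mTORC1 substrates, the translation repressor gene EIF4EBP2 was at -0.37 (SE 0.14) and LARP1, which binds mRNAs of ribosomal proteins, at 0.33 (SE 0.13). Of the MiT/TFE factors, MITF was at -0.52 (SE 0.24) and TFE3 at -0.49 (SE 0.47). All of these are log2 fold changes of N_12 over DMSO.

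Transcript length moved slightly with the fold change over all tested genes, with a median of -0.09 for genes with transcripts up to 1963 bases and of 0.05 above 4790 bases. TSC1, TSC2, RPTOR, MTOR and SESN3 belong to the longer class, DDIT4 and LAMTOR2 to the shorter. With a correction for GC content and length, chosen after the data were seen, DDIT4 was at -1.19 and TSC2 at 0.43. Under that correction LAMTOR2 was at -0.29, LAMTOR4 at -0.18 (-0.42 without it) and LAMTOR5 at -0.32, and the median of the Rag GTPase and Ragulator list was -0.18. LAMTOR4 was named after its values were seen. The values of TBC1D7 (-0.09) and WDR24 (0.10) also came out smaller by over 1.5 times. RPTOR was at 0.80 (edgeR adjusted p = 0.0212) and MTOR at 0.64 (edgeR adjusted p = 0.0373) under it. EIF4EBP2 was called lower with it (-0.44, edgeR adjusted p = 0.0476).

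The genes whose pattern over the 4 libraries was most like that of DDIT4, by distance between log2 CPM values each centred on its own mean, were the ribosomal protein gene RPL39 (0.13), the glycolysis regulator PFKFB4 (0.13) and the membrane transporter-like gene MFSD14A (0.15). RPL39 went from 643 and 565 CPM in DMSO to 237 and 303 CPM in N_12, and PFKFB4 from 110 and 94.3 to 40.5 and 50.6 CPM. In each of these genes, as in DDIT4, N_12 replicate 1 was the lowest library and DMSO replicate 1 the highest. They were picked for likeness to DDIT4 over these same 4 libraries, so this shared order is not a separate result.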

How the data were processed

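The authors deposited raw gene counts (whole numbers, not normalized) in 1 table with human Ensembl identifiers. An mRNA library kit was used, per the labels' protocols. The aligner, the counter and the strandedness were not given in the sources used here. GRCm38 and mm10, both mouse builds, are listed in the submitters' processing notes and do not match human identifiers. No gene coordinates from the counts are therefore printed.

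Groups and replicate numbers came from the sample titles. Counts were fitted over the whole table in R 4.3.3 with edgeR 4.0.16 (TMM scaling, expression filter with groups, robust quasi-likelihood test, no replicate term). Calls are two-sided at a Benjamini-Hochberg adjusted p of 0.05, and intervals are 95%. DESeq2 1.42.0 and limma-voom (limma 3.58.1) were alternatives. Ratios of members (pseudocount of 0.5 counts) had an exact permutation test, and pattern likeness used log2(CPM + 1) and genes of at least 5 CPM. Lengths and GC came from GENCODE 29, known for 14089 of 14105 tested genes. The fit was tested on simulated data.

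The genes and lists were chosen with earlier results of these data known, so no list count is independent evidence. Named were all members, in each part of the pathway list the called genes and the 2 with the smallest p, in each regulator list the 3 with the smallest p, and for called members of at least 5 CPM the 3 nearest genes. One gene that this rule names is not reported here.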

Additional observations from a re-analysis of the deposited data

How the results depend on the processing

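Directions held for 8 of the 10 genes under all 13 alternatives. The exceptions were not called in any fit: when 1 library was left out CASTOR1 ranged from -0.75 to 0.15 (above 0 without N_12 replicate 1) and RRAGC from -0.29 to 0.041 (above 0 without N_12 replicate 2). DDIT4 kept its call in 10 of 13. Over all genes, 964 were called with a replicate block, 1184 with DESeq2, 841 with GC and length correction (chosen after seeing the data), 131 with limma-voom and 131 without robust dispersions, and 0 to 451 when 1 library was left out. Of the 10 genes, 2 were called with the replicate block (DDIT4 and SESN3), 4 with DESeq2, 2 with GC and length correction, 0 without robust dispersions, and 0 to 1 when 1 library was left out. Of the other pathway genes, 2 were called with at least 1 CPM required in every library, 2 with the replicate block (RPTOR and MTOR), 4 with DESeq2, 3 with GC and length correction, 0 with limma-voom, 0 without robust dispersions, and 0 to 1 when 1 library was left out. Scaling by library totals moved the median of all genes from 0.01 to 0.06 and left DDIT4 at -1.18. The labels do not say that replicate numbers pair libraries. Deviations of same-numbered libraries from their group means had a weak negative correlation across genes (-0.15). The block is therefore given here only. Counts of the 10 genes were at least 156 in every library, and with 2 libraries per group the spread between libraries sets the precision. The cause of the changes between settings was not tested.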
